A study of Homo sapiens with 4 samples.

Results

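Oxidative phosphorylation subunit genes encode the protein complexes of the mitochondrial inner membrane that carry electrons to oxygen and make ATP. The members described here were the protein_coding genes of GENCODE release 29 (hg38) whose symbol starts with NDUFA, NDUFB, NDUFC, NDUFS, NDUFV, SDH, UQCR, COX4, COX5, COX6, COX7, COX8 or ATP5, and the skipped exons that lay inside one of them on its strand. The prefixes took in 103 genes. Of these, 71 held at least 1 listed skipped-exon event and 32 held none, SDHB, UQCRFS1 and NDUFV2 among them. The members were 222 events on 202 exons, out of 44447 events on 37641 exons in the series. The prefixes also take in assembly factors (NDUFAF and SDHAF symbols), which help to build complexes I and II and are described apart from the subunits.

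The series compared MDA-LM2 with MDA-MB-231. MDA-LM2, called LM2 here, is a derivative with high lung-metastatic activity of MDA-MB-231, an established human triple-negative breast cancer line called parental here. Both lines were grown in the same DMEM-based medium without treatment, and 2 samples per line gave the total RNA for ScriptSeq v2 libraries. The deposited tables hold 1 value per event for each line, taken here as pooled over its samples, so no replicate error was available and no p-value is given for any difference between the lines.

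Complex I (NADH dehydrogenase) and complex II (succinate dehydrogenase) pass electrons to ubiquinone, complex III (cytochrome bc1) hands them to cytochrome c, and complex IV (cytochrome c oxidase) gives them to oxygen. Protons pumped along the way drive complex V, the ATP synthase, whose central stalk turns inside a ring of catalytic subunits. Some subunit genes make more than 1 isoform by exon skipping or by tissue-specific copies, and cancer cells are known to differ in how far they rely on this pathway.

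Libraries were compared at the level of reads that MISO could place on an event. Over all events, LM2 had 4701744 reads that fit only the isoform with the exon (inclusion reads), 955034 that fit only the isoform without it (exclusion reads) and 11709827 that fit both, and parental cells had 5529885, 1101330 and 15085722. Member events took 49037 inclusion and 19642 exclusion reads in LM2, and 60324 and 27911 in parental cells. Reads that fit neither isoform made up 60.1% of those listed at member events in LM2, and 60.9% in parental cells. Event reads (inclusion, exclusion and both together, at a gene's best covered event) of the mesenchymal breast cancer markers CD44, EGFR and AXL were 38259, 897 and 2883 in LM2 and 54542, 539 and 3916 in parental cells. The luminal markers ESR1, PGR, CDH1 and GATA3 had 1, 1, 11 and 13 event reads in LM2, and 1, 2, 13 and 57 in parental cells. The leukocyte marker PTPRC had 5 in LM2 and 2 in parental cells, and the fibroblast marker PDGFRB had 6 in LM2 and 51 in parental cells. None of the 4 muscle markers, the muscle forms COX6A2 and COX7A1 among them, held a listed event. The same was true of the mesenchymal markers VIM, CAV1 and MSN and the luminal markers EPCAM and ERBB3. The leukocyte markers CD68 and CD3E, the endothelial markers PECAM1 and CDH5 and the fibroblast markers COL1A1 and COL1A2 also held none. A gene without a listed event was not measured here, so its expression is not known from these data.

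The sequences of 4 exons are shown because the exon results turn on them, each read from the GENCODE transcript with the exon (capitals) and its flanks (lower case), and from a transcript that joins the flanks directly. The ATP5F1C exon, 37 nt at chr10:7806974-7807010 on the plus strand (hg38), holds 4 coding bases and then a TAA stop. The transcript with the exon, ATP5F1C-202, encodes 298 codons, and ATP5F1C-201 without it encodes 297. Skipping of this exon is known from heart and skeletal muscle. The NDUFV3 exon, 1095 nt at chr21:42903182-42904276 on the plus strand, is coding throughout and in frame, with 473 codons in NDUFV3-202 and 108 in NDUFV3-201, and its first and last 60 bases are shown. The ATP5MG exon, 53 nt at chr11:118405657-118405709 on the plus strand, is annotated only in transcripts of nonsense-mediated decay or without a coding part. In ATP5MG-206 it is followed after 6 bases by a TGA stop that lies 152 nt before the last exon junction, leaving 37 codons, against 103 in ATP5MG-201. The NDUFA3 exon, 107 nt at chr19:54105597-54105703 on the plus strand, leads to a TAA stop 3 bases after it, with 65 codons in the decay transcript NDUFA3-205 and 84 in NDUFA3-214.
ATP5F1C-202, exon included: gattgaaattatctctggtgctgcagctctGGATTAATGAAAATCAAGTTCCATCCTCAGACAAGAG
ATP5F1C-201, exon skipped: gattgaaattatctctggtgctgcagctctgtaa
NDUFV3-202, start of the exon: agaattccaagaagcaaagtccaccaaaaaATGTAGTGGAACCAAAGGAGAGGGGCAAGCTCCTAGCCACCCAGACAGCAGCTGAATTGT
NDUFV3-202, end of the exon: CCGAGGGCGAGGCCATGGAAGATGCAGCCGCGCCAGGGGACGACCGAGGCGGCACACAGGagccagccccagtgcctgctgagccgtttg
NDUFV3-201, exon skipped: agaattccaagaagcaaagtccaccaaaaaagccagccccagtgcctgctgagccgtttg
ATP5MG-206, exon included: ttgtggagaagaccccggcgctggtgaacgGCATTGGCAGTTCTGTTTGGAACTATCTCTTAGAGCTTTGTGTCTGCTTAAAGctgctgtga
ATP5MG-201, exon skipped: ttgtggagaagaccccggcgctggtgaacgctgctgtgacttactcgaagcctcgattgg
NDUFA3-205, exon included: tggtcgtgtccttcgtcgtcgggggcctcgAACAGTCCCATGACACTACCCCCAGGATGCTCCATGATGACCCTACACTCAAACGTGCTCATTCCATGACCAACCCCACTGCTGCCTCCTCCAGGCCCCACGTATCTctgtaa
NDUFA3-214, exon skipped: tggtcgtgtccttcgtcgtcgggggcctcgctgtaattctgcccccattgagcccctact

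The first question was whether exons of these genes were included at different levels in LM2. The inclusion level is the share of a gene's transcripts that keep the exon, from 0 to 1, as deposited by the authors with an interval. An exon was compared where inclusion and exclusion reads together came to 10 or more in each line and both kinds occurred, which left 127 exons in 57 genes. Of the other 75 exons, 25 had too few reads, 39 had no exclusion read in either line and 9 had no inclusion read. The last 2, both in COX7B2, were listed for parental cells only. Levels were nearly the same in the lines for most exons. The difference, LM2 minus parental, had a median of 0.00 with quartiles of -0.01 and 0.01 over member exons, and a median of 0.00 with quartiles of -0.02 and 0.03 over all 14109 exons compared in the series. It was at most 0.05 in size in 107 member exons, or 84.3%, against 70.8% of all exons. Member exons sat nearer the ends of the scale. With the mean of the lines as the measure, 59 were below 0.1, 27 between 0.1 and 0.9 and 41 above 0.9, so 21.3% were intermediate, against 44.0% of all exons. They were also better covered, with a median of 190 such reads in LM2 and 249 in parental cells, against 74 in LM2 and 92 in parental cells over all exons. The part of level and depth in the small differences was not tested.

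No member exon passed a Bayes factor of 10 together with a difference of 0.2, which 1.25% of all exons passed. A Bayes factor of 10 alone was passed by 3 member exons and by 2.59% of all exons. The same 3 of 127 passed at a difference of 0.1, or 2.36%, against 2.07% of all exons, a share near that of the series. These were the exons of ATP5F1C and NDUFV3, lower in LM2, and of ATP5MG, higher in LM2. In the series 0.617% of exons passed as lower and 1.45% as higher. The deposited intervals did not overlap between the lines in 4 member exons, the same 3 and 1 of UQCRQ, against 3.23% of all exons. Of the 4, 3 were lower in LM2 and 1 higher, while of all exons 1.02% were lower and 2.21% higher. A second measure used the reads alone, as the odds of inclusion over exclusion reads in LM2 over those odds in parental cells, with an exact conditional 95% interval that covers counting error only. The interval excluded 1 in 7 member exons, or 5.51%, against 6.21% of all exons. Of these, 5 were lower in LM2 (ATP5F1C, NDUFV3, NDUFA3, UQCRH, UQCRQ), against 3.04% of all exons, and 2 higher (ATP5MG, NDUFS4), against 3.17%. Without any threshold, the difference was above 0 in 49 member exons, or 38.6%, and below 0 in 39, or 30.7%, against 44.2% and 38.7% of all exons.

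**Figure D1:**
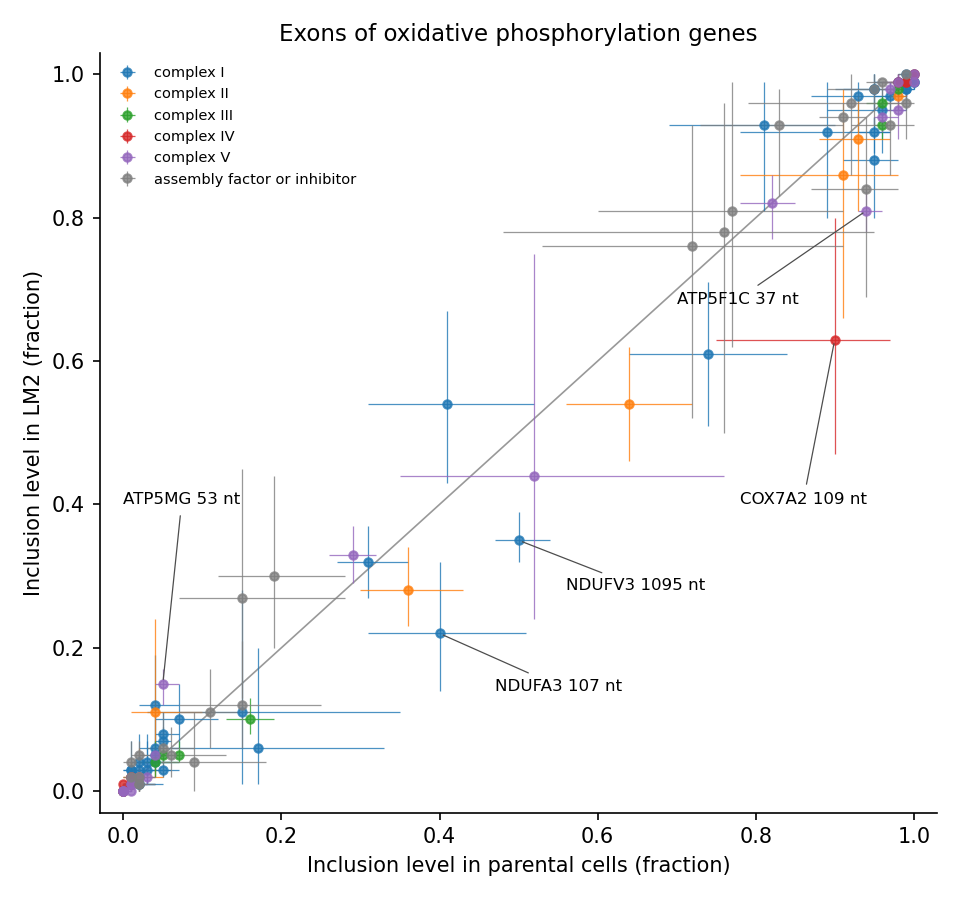
Inclusion level (fraction) in LM2 on the vertical axis against parental cells on the horizontal axis for the 127 member exons compared, coloured by complex; points are deposited levels, bars the deposited intervals and the line marks equal levels. Most points lie close to the line near 0 or 1, and the labelled exons of ATP5F1C (0.81 in LM2, 0.94 in parental cells), NDUFV3 (0.35 in LM2, 0.50 in parental cells) and ATP5MG (0.15 in LM2, 0.05 in parental cells) lie off it with narrow intervals.

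In complex V, 22 exons were compared. ATP5F1C encodes the gamma subunit, the central stalk that turns inside the catalytic head. In LM2 its 37-nt exon was kept at a level of 0.81 (deposited interval 0.78 to 0.84), and in parental cells at 0.94 (0.93 to 0.96). The difference in the authors' deposited table was -0.13, with a Bayes factor at the cap of the file. LM2 had 571 inclusion and 98 exclusion reads, and parental cells 1139 and 50. The odds ratio of the reads was 0.256 (95% interval 0.176 to 0.369). Scaled to the library totals of event reads, inclusion reads were 0.627-fold those of parental cells (0.566 to 0.694) and exclusion reads 2.45-fold (1.73 to 3.52), so the form without the exon was higher in LM2 while the form with it was lower. The gene's other exons stayed close: a 35-nt exon was at 0.95 in LM2 and 0.98 in parental cells, where LM2 had 8 exclusion reads and parental cells 4, and a 57-nt exon of non-coding transcripts was at 0.00 in both.

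ATP5MG encodes subunit g, a small protein of the membrane part where synthase dimers form. The 53-nt decay exon was at 0.15 (0.12 to 0.17) in LM2 and 0.05 (0.04 to 0.07) in the parental line, a difference of 0.10 in the authors' deposited table, again with the Bayes factor at the cap. LM2 had 118 inclusion and 528 exclusion reads, and parental cells 64 and 880. By reads alone, with inclusion reads at a weight of 0.5, the difference was 0.07. Inclusion reads were 2.31-fold those of parental cells (1.69 to 3.18) and exclusion reads 0.75-fold (0.672 to 0.837). The exon also lies inside AP001267.5, a gene on the same strand, and reads of the pair cannot be told apart. Of the 22 complex V exons, these 2 included, 19 differed by at most 0.05. The best covered was a 72-nt coding exon of ATP5PD, subunit d of the peripheral stalk, at 0.99 in LM2 and 1.00 in parental cells, where LM2 had 3474 inclusion reads and parental cells 4010. ATP5ME, subunit e, held a 55-nt coding exon that was often skipped, at 0.82 in both lines. A 146-nt exon of ATP5PB, subunit b, was at 0.33 (0.29 to 0.37) in LM2 and 0.29 (0.26 to 0.32) in the parental line, with overlapping intervals. By reads alone the levels were 1.00 in LM2 and 0.98 in parental cells, far above those deposited. LM2 had 334 inclusion reads and 0 of exclusion, and parental cells had 405 and 4. The part of reads that fit both isoforms in the deposited levels was not tested.

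Complex I had 50 exons compared, 42 of them within 0.05. NDUFV3 encodes an accessory subunit of the NADH-oxidising arm, and its long exon makes the longer of its known forms. The level was 0.35 (0.32 to 0.39) in LM2 and 0.50 (0.47 to 0.54) in the parental line, a difference of -0.15 in the authors' deposited table with the Bayes factor at the cap. LM2 had 692 inclusion and 69 exclusion reads, and parental cells 1283 and 85. Inclusion reads were 0.674-fold those of parental cells (0.614 to 0.74), while exclusion reads were 1.02-fold (0.728 to 1.41), an interval that holds 1. The reads of the form without the exon were thus not shown to differ between the lines. The odds ratio of the reads was 0.665 (0.471 to 0.94). The read measure takes no account of exon length, and by reads alone the levels were 0.83 in LM2 and 0.88 in parental cells, a difference of -0.05, short of 0.1. The other compared exon of the gene, 121 nt, was at 0.98 in LM2 and 0.95 in parental cells.

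NDUFA3, an accessory subunit of the membrane arm, had its 107-nt decay exon at 0.22 (0.14 to 0.32) in LM2 and 0.40 (0.31 to 0.51) in the parental line. In the authors' deposited table its Bayes factor was 4.74, below the threshold, and the intervals overlapped by a little. LM2 had 21 inclusion and 34 exclusion reads and parental cells 56 and 35, an odds ratio of 0.389 (0.183 to 0.811). Inclusion reads were 0.469-fold (0.27 to 0.787) and exclusion reads 1.21-fold (0.735 to 2.01). NDUFS4, an accessory subunit whose loss is a known cause of Leigh syndrome, had an 89-nt decay exon at 0.03 (0.02 to 0.04) in LM2 and 0.01 (0.00 to 0.02) in the parental line. LM2 had 24 inclusion and 412 exclusion reads and parental cells 11 and 551, an odds ratio of 2.91 (1.36 to 6.67). A longer version of that exon, 172 nt, was at 0.05 in LM2 and 0.04 in parental cells, with 72 inclusion reads in each line.

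Other complex I exons with large differences had wide, overlapping intervals and Bayes factors below 1 in the authors' deposited table. A 67-nt coding exon of NDUFB5 was at 0.54 (0.43 to 0.67) in LM2 and 0.41 (0.31 to 0.52) in the parental line, and a 93-nt coding exon of NDUFB6 at 0.61 (0.51 to 0.71) in LM2 and 0.74 (0.64 to 0.84) in the parental line. Both genes encode accessory subunits of the membrane arm. NDUFS1, the largest iron-sulfur subunit, had a 92-nt coding exon at 0.93 (0.81 to 0.99) in LM2 and 0.81 (0.69 to 0.90) in the parental line, where LM2 had 0 exclusion reads and parental cells 5. The best covered exon of the complex, 144 nt in NDUFC2, was at 1.00 in both lines, where LM2 had 726 inclusion reads and 1 exclusion read and parental cells had 1484 and 0. NDUFS3, a core subunit, had a 192-nt exon of intermediate level with no difference detected, at 0.32 (0.27 to 0.37) in LM2 and 0.31 (0.27 to 0.36) in the parental line. That exon also lies inside PTPMT1, a mitochondrial phosphatase gene on the same strand.

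**Figure D2:**
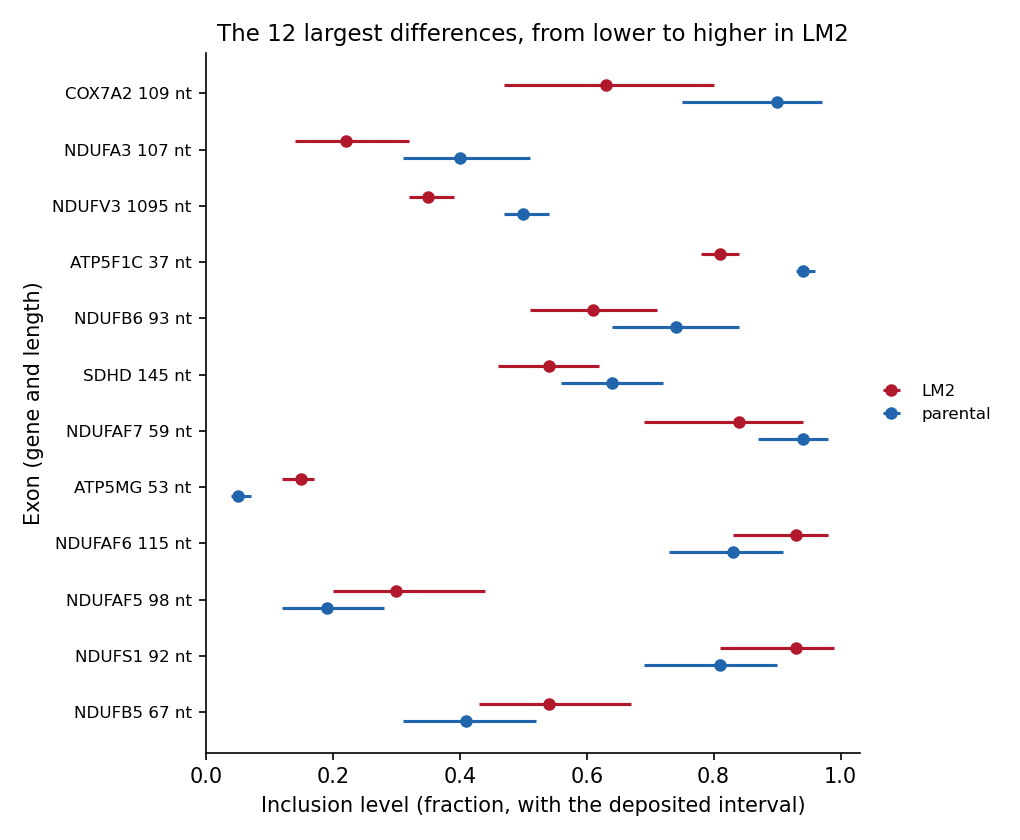
Inclusion level (fraction) of the 12 member exons with the largest differences, 1 per gene and where each line had 20 or more inclusion and exclusion reads; LM2 is drawn above parental cells, points are deposited levels and bars the deposited intervals. The intervals are apart for NDUFV3, ATP5F1C and ATP5MG and overlap for the other 9 exons.

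In complex III, 10 exons were compared and 9 lay within 0.05. UQCRQ, a small subunit near the ubiquinone site, had a 167-nt exon at 0.93 (0.91 to 0.94) in LM2 and 0.96 (0.95 to 0.97) in the parental line. The reads were 1251 inclusion and 47 exclusion in LM2 and 1755 and 30 in parental cells, an odds ratio of 0.455 (0.276 to 0.739). In the authors' deposited table its Bayes factor was 2.03. UQCRH, the hinge protein that holds cytochrome c1, had a 148-nt decay exon at 0.10 (0.08 to 0.13) in LM2 and 0.16 (0.13 to 0.19) in the parental line, and the authors' deposited table gives it a Bayes factor of 4.74. LM2 had 72 inclusion and 43 exclusion reads and parental cells 121 and 30, an odds ratio of 0.417 (0.23 to 0.746). By reads alone the levels were 0.46 in LM2 and 0.67 in parental cells, well above those deposited. The deposited intervals of this exon met at 0.13. UQCRH also has a near-identical copy, UQCRHL, which held no event, and the counting of reads that map to both was not given in the sources used here. Best covered in the complex was a 137-nt exon of UQCRB, the ubiquinone-binding protein, at 0.05 (0.04 to 0.07) in LM2 and 0.07 (0.06 to 0.07) in the parental line, beside 1401 exclusion reads for LM2 and 2903 for parental cells.

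Complexes II and IV had 10 exons each, and no deposited interval of theirs was apart between the lines. SDHD, a membrane anchor of complex II, had a 145-nt coding exon at 0.54 (0.46 to 0.62) in LM2 and 0.64 (0.56 to 0.72) in the parental line. By reads alone the levels were 0.99 in LM2 and 1.00 in parental cells, far above those deposited. LM2 had 185 inclusion reads and 1 exclusion read, and parental cells had 251 and 0. A 138-nt version of the same exon, counted apart, was at 0.28 (0.23 to 0.34) in LM2 and 0.36 (0.30 to 0.43) in the parental line. Both versions also lie inside AP002884.3, a gene on the same strand. The part of reads that fit both isoforms in the deposited levels was not tested. SDHA, the catalytic flavoprotein, had the best covered exon, 144 nt, at 0.97 (0.95 to 0.98) in LM2 and 0.98 (0.97 to 0.99) in the parental line, with 21 exclusion reads in each. In complex IV, COX7A2, the liver-type form of a small subunit, held the largest difference of the 127 exons compared. Its 109-nt exon was at 0.63 (0.47 to 0.80) in LM2 and 0.90 (0.75 to 0.97) in the parental line, and the authors' deposited table gives -0.27 and a Bayes factor of 3.36. Exclusion reads were too few to set a direction, since LM2 had 59 inclusion reads and 0 of exclusion and parental cells had 128 and 1. An 85-nt version of the same exon, with 851 inclusion reads in LM2 and 1243 in parental cells, was at 1.00 in both. COX6B1, a subunit on the intermembrane side, had the best covered exon of the complex, 101 nt, at 0.99 in both lines.

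Among assembly factors, 25 exons were compared, 21 of them within 0.05, and none had intervals apart. A 98-nt decay exon of NDUFAF5, a complex I assembly factor, was at 0.30 (0.20 to 0.44) in LM2 and 0.19 (0.12 to 0.28) in the parental line. Of NDUFAF6 and NDUFAF7, also complex I assembly factors, a 115-nt exon of the first was at 0.93 (0.83 to 0.98) in LM2 and 0.83 (0.73 to 0.91) in the parental line, and a 59-nt exon of the second at 0.84 (0.69 to 0.94) in LM2 and 0.94 (0.87 to 0.98) in the parental line. The best covered, 224 nt in SDHAF2, which helps to attach the flavin of SDHA, was at 0.99 (0.97 to 0.99) in LM2 and 0.96 (0.94 to 0.98) in the parental line.

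The reads of the 4 exons can also be set out by form. Relative to the library totals, inclusion and exclusion reads differed in opposite directions for ATP5F1C and ATP5MG. For NDUFV3 and NDUFA3 the interval of the exclusion reads held 1, and the interval of the inclusion reads lay below 1.

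**Figure D3:**
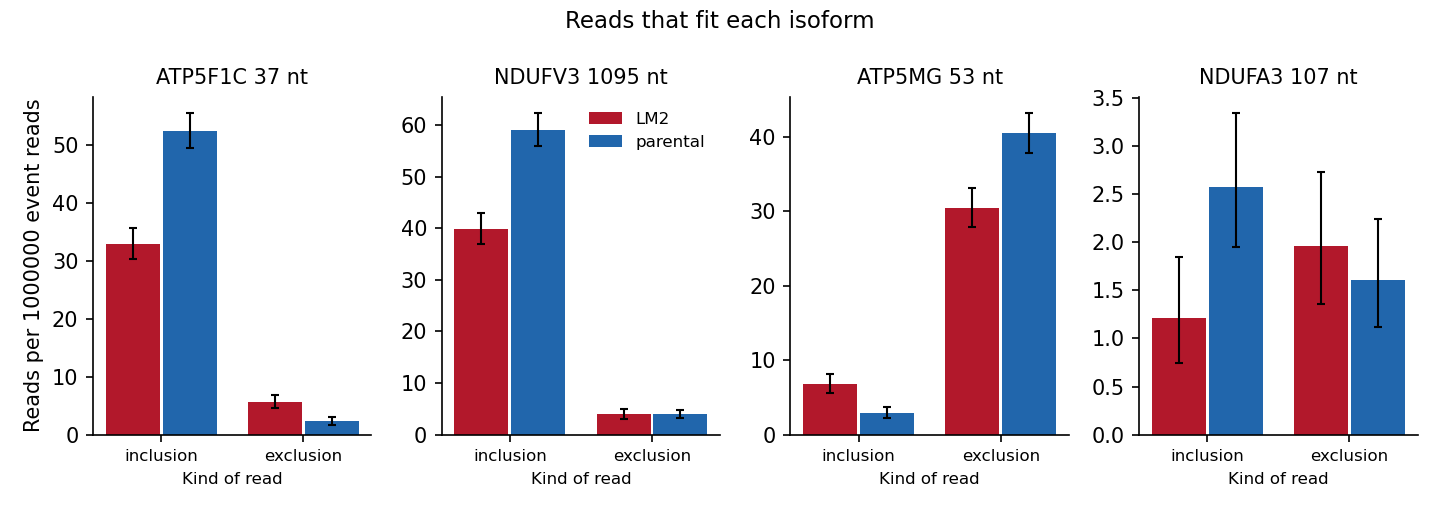
Inclusion and exclusion reads per 1000000 event reads at 4 exons, LM2 left of parental cells; bars start at 0 and error bars are exact 95% Poisson intervals, which cover counting error only. LM2 is lower for inclusion at ATP5F1C, NDUFV3 and NDUFA3 and higher at ATP5MG, and for exclusion it is higher at ATP5F1C and lower at ATP5MG.

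The place of an exon in the annotation was not used to choose members. Of the 127 exons, 56 were coding, 10 coding and untranslated, 13 in the 5' untranslated region, 32 in transcripts of nonsense-mediated decay only and 14 in non-coding transcripts only, and 2 matched no annotated exon exactly. Decay-only exons made up 25.2% of member exons and 16.5% of all exons. Their median level was low in both lines, 0.035 in LM2 and 0.03 in parental cells, against 0.955 in each line for coding members. Of the 14 exons of non-coding transcripts, 7 were higher in LM2, 0 lower and 7 equal at the 2 decimals deposited. Over all exons of that place in the series, 46.8% were higher and 36.2% lower. The member levels there reached 0.12 at most in LM2 and 0.05 in parental cells, so these were differences of at most 0.08 between low levels. The interval of the read odds ratio held 1 in each of the 7 higher exons. A 318-nt and a 251-nt version of the same NDUFV1 exon were both among the 7. These versions shared their exclusion reads, so the 7 were not independent. Member exons had a median length of 117 nt, against 119 nt over all exons, and 36.2% of them kept the reading frame by length, against 41.8%. Median introns were 2020 nt upstream and 1628 nt downstream of member exons, against 2296 and 2221 nt.

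**Figure D4:**
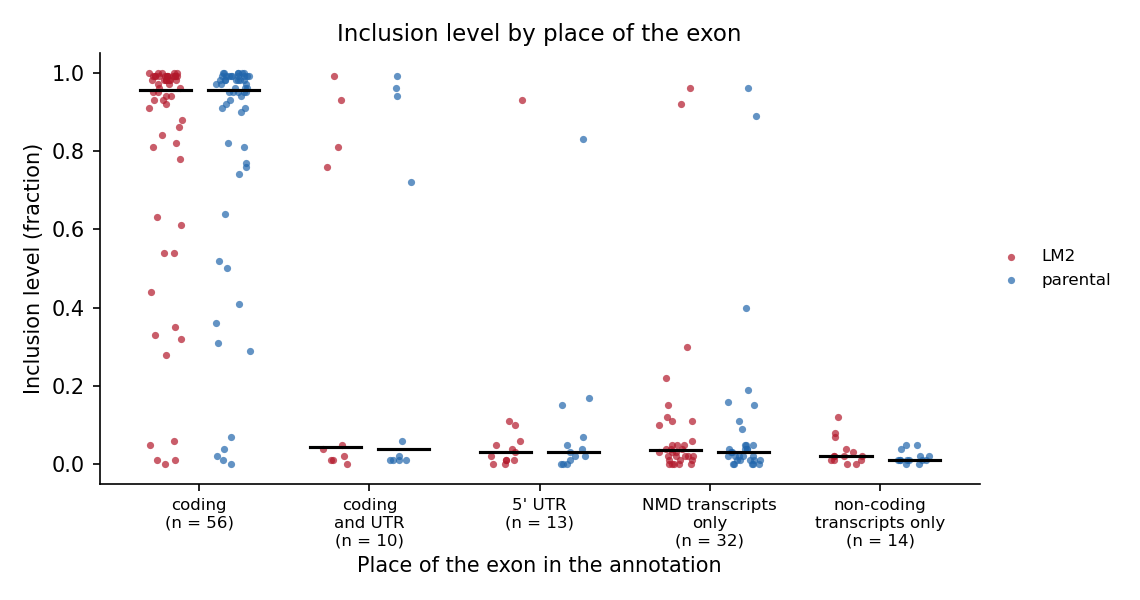
Inclusion level (fraction) of member exons by their place in the annotation, LM2 left of parental cells; each point is 1 exon and black lines are medians. Coding exons sit mostly above 0.9 and exons of decay or non-coding transcripts mostly below 0.2, in both lines.

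The second question was whether the genes differed in the number of reads at their events. For each gene the event reads of its best covered event were divided by the library total (17366605 in LM2 and 21716937 in parental cells). These ratios are not gene expression as a full count would give it, because reads away from events are not in the tables. With 1 pooled value per line, more RNA per cell and more cells that express a gene cannot be told apart. Of 68 member genes with an event in both lines, 64 had at least 20 event reads over both. The other 4 (ATP5MC2, COX6B2, NDUFA4L2 and NDUFS7) had at most 7 in LM2 and at most 6 in parental cells. No member gene passed 2-fold in either direction with an interval that excluded 1, which 11.2% of 9265 genes in the series did, 2.95% as higher and 8.28% as lower in LM2. At 1.5-fold 12 of 64 passed, against 26.2% of all genes. Of these, 2 were higher (background 8.07%) and 10 lower (background 18.1%). The interval lay above 1 in 22 member genes, below 1 in 24 and held 1 in 18, while over all genes it lay above 1 in 23.3% and below 1 in 37.3%. The median log2 ratio was -0.01 over members and -0.11 over all genes. Relative to that median gene, members were at 0.10, and group medians below are given on that scale.

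Complex IV and the assembly factors were the groups with the highest medians. The 8 complex IV genes had a median log2 ratio of 0.30 relative to the median gene, with 5 intervals above 1 and 2 below. Genes were placed in complex IV by symbol alone, COX7A2L at 1.13 (1.01 to 1.27) among them. COX5B, a subunit on the matrix side, had 1239 event reads in LM2 and 1100 in parental cells, a ratio of 1.41 (1.30 to 1.53). COX4I1, a large nuclear-encoded subunit with regulatory roles, had 2118 in LM2 and 1982 in parental cells, a ratio of 1.34 (1.26 to 1.42), and COX6B1 had 2929 in LM2 and 2813 in parental cells, a ratio of 1.30 (1.24 to 1.37). COX7C, the best covered gene of the complex with 2564 event reads in LM2 and 3897 in parental cells, went the other way at 0.823 (0.782 to 0.865). Among the 8 assembly factors the median was 0.27. NDUFAF4 had 506 event reads in LM2 and 427 in parental cells, a ratio of 1.48 (1.30 to 1.69), and NDUFAF5 had 228 in LM2 and 224 in parental cells, a ratio of 1.27 (1.05 to 1.54). SDHAF2, best covered with 1579 event reads in LM2 and 1724 in parental cells, was at 1.15 (1.07 to 1.23) and shares its event with AP003108.2. NDUFAF6 was lower, with 213 event reads in LM2 and 392 in parental cells, a ratio of 0.679 (0.572 to 0.805). Its events differed widely, since the log2 ratio ran between -1.16 and 0.38 over 19 events with at least 50 reads.

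Complex III had a median of -0.36 over 6 genes relative to the median gene, with 4 intervals below 1 and 2 above. UQCRC1, a core protein, had 755 event reads in LM2 and 1607 in parental cells, a ratio of 0.588 (0.538 to 0.641). UQCRB had 3324 in LM2 and 6840 in parental cells, a ratio of 0.608 (0.583 to 0.634), and UQCR11, a small subunit, had 352 in LM2 and 744 in parental cells, a ratio of 0.592 (0.52 to 0.673). The UQCR11 event also lies inside AC005943.1. UQCRQ was lower by less, with 3067 event reads in LM2 and 4471 in parental cells, a ratio of 0.858 (0.819 to 0.898). UQCRH, the best covered, was higher in LM2 with 7997 event reads, against 8024 in the larger parental library, a ratio of 1.25 (1.21 to 1.29). UQCRC2, the other core protein, was at 1.17 (1.07 to 1.27). Using only events inside 1 protein_coding gene brought the complex III median to -0.10 over 5 genes, above that of complex II at -0.31 over 2 genes. In complex II, with 3 genes and a median of -0.17 relative to the median gene, SDHA had 2003 event reads in LM2 and 3760 in parental cells, a ratio of 0.666 (0.631 to 0.703), and SDHC, a membrane anchor, was at 0.824 (0.775 to 0.876). SDHD was at 1.09 (1.03 to 1.14), a direction that turned to -0.13 on the log2 scale when reads fitting neither isoform were counted too. The SDHD event also lies inside AP002884.3.

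Complex V genes spread to both sides, with a median of 0.04 relative to the median gene over 14 genes. Lowest was ATP5S, or coupling factor B, with 155 event reads in LM2 and 334 in parental cells, a ratio of 0.58 (0.477 to 0.704). ATP5S was placed in complex V by its symbol alone. ATP5MC1, a c-ring gene, had 405 event reads in LM2 and 819 in parental cells, a ratio of 0.618 (0.548 to 0.697). ATP5MC2 had too few event reads and ATP5MC3 held no event, so the c-ring genes were not measured together. ATP5F1A, the alpha subunit of the head, had 856 event reads in LM2 and 1642 in parental cells, a ratio of 0.652 (0.60 to 0.708). That ratio came from a 5' untranslated event, and the gene's log2 ratio ran between -0.62 and -0.05 over 4 events with at least 50 reads. ATP5F1B, the beta subunit that pairs with ATP5F1A, was at 1.09 (1.04 to 1.15), with 3043 event reads in LM2 and 3489 in parental cells. ATP5F1C as a gene had 1189 event reads in LM2 and 2225 in parental cells, a ratio of 0.668 (0.622 to 0.717). Highest was ATP5MPL, a small membrane subunit, with 1023 in LM2 and 812 in parental cells, a ratio of 1.58 (1.44 to 1.73). Its events did not move as 1, since the log2 ratio ran between -0.06 and 0.82 over 4 events with at least 50 reads. ATP5PD, the best covered gene, was at 1.08 (1.03 to 1.13) with 3655 event reads in LM2 and 4238 in parental cells.

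Complex I had 25 genes and a median of 0.03 relative to the median gene. NDUFB3, an accessory subunit of the membrane arm, was the highest of all members, with 367 event reads in LM2 and 280 in parental cells, a ratio of 1.64 (1.40 to 1.92). NDUFS1 had 723 in LM2 and 636 in parental cells, a ratio of 1.42 (1.28 to 1.58). NDUFC2 had 1321 in LM2 and 2562 in parental cells, a ratio of 0.645 (0.603 to 0.689), and its exons also lie inside the readthrough gene NDUFC2-KCTD14. NDUFB2, a further membrane-arm subunit, had 241 in LM2 and 453 in parental cells, a ratio of 0.665 (0.567 to 0.78). NDUFS3, the best covered, had 2519 in LM2 and 3219 in parental cells, a ratio of 0.979 (0.928 to 1.03). An event of NDUFS3 outside PTPMT1 gave a log2 ratio of 0.30 in place of -0.03. That event was far less covered, with 37 inclusion reads and 36 that fit both isoforms in LM2, and 42 and 32 in parental cells. Its interval is not given here, so no difference is read from it. Of the 64 member genes, 7 changed direction under another choice of events or read classes (NDUFA5, NDUFA9, NDUFAF7, NDUFS3, NDUFS4, SDHAF3 and SDHD), and 57 did not.

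**Figure D5:**
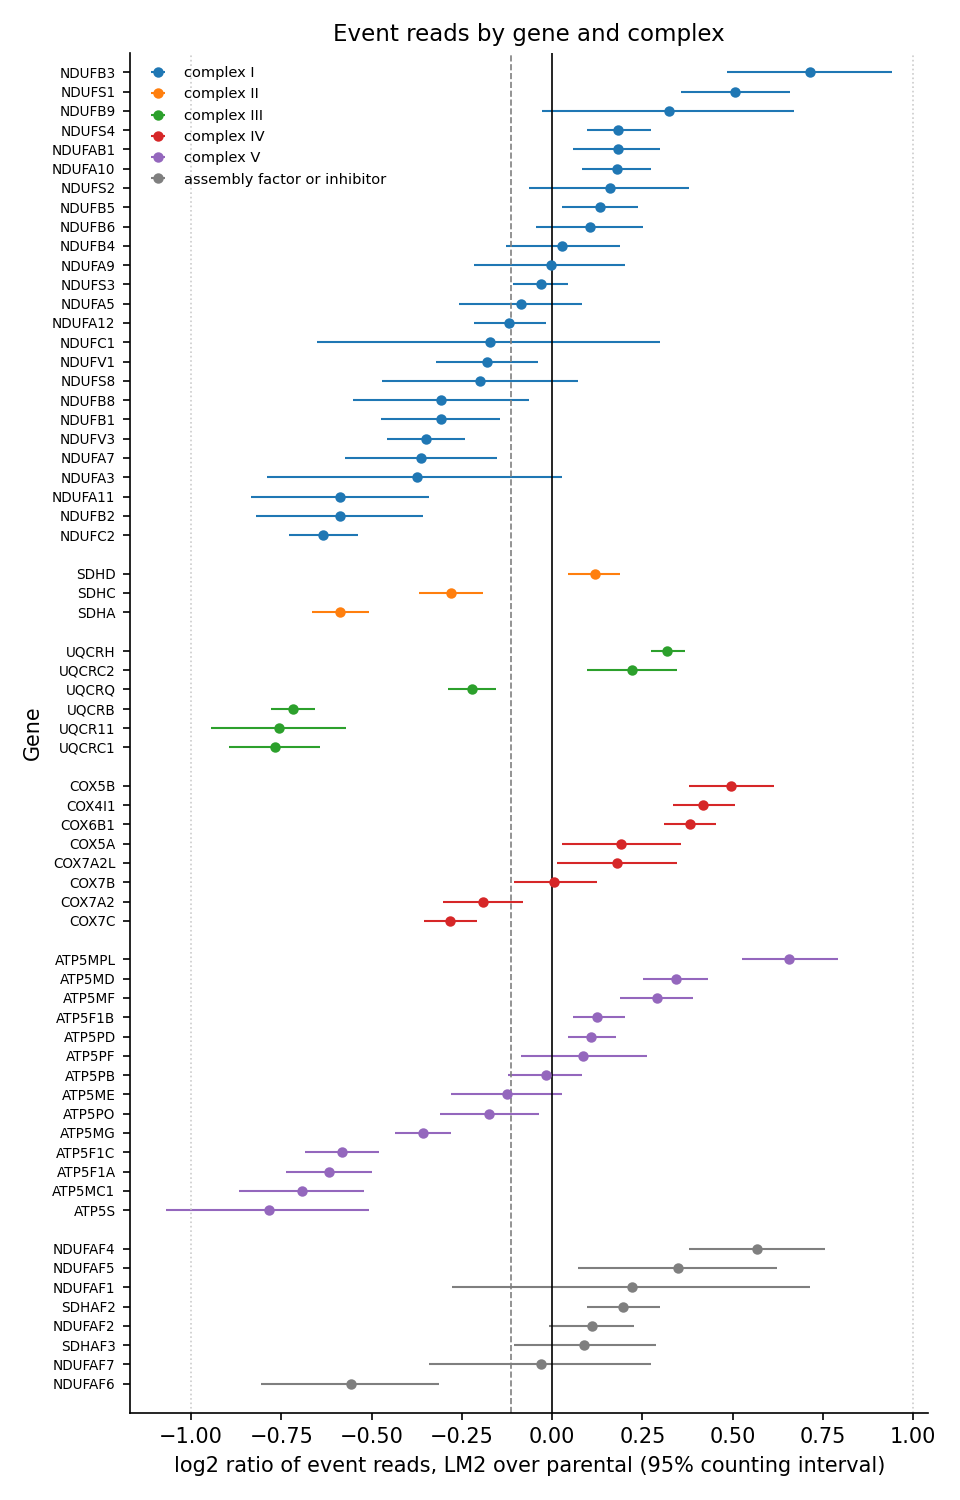
Log2 ratio of event reads, LM2 over parental cells, for 64 member genes grouped by complex; points are ratios scaled to the library totals, bars exact 95% counting intervals, the solid line marks 0, the dashed line the median of all genes at -0.11 and dotted lines mark 2-fold. Complex III divides into 3 genes near -0.75 and others nearer 0, and no gene reaches a dotted line with its point.

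Lists of related genes gave the setting. For comparison, 1.25% of all exons passed a Bayes factor of 10 with a difference of 0.2. Of all genes, 11.2% were past 2-fold, 2.95% as higher and 8.28% as lower in LM2. For other genes of the pathway (electron carriers, ubiquinone synthesis and assembly factors without an NDUFAF or SDHAF symbol), 76 exons were compared and 1 passed at a difference of 0.2. This was a 163-nt coding exon of DMAC2, linked to complex I assembly, at 0.22 (0.15 to 0.30) in LM2 and 0.43 (0.33 to 0.55) in the parental line. Of 45 such genes, 1 was past 2-fold higher and 2 lower. CYCS, which encodes cytochrome c, had 2580 event reads in LM2 and 1547 in parental cells, a ratio of 2.09 (1.96 to 2.22). ETFDH, which feeds electrons from fatty acid oxidation into ubiquinone, had 48 in LM2 and 158 in parental cells, a ratio of 0.38 (0.269 to 0.528), and UQCC2, a complex III assembly factor, had 477 in LM2 and 1233 in parental cells, a ratio of 0.484 (0.434 to 0.538). Relative to the median gene UQCC2 was at -0.93 on the log2 scale, short of 2-fold. Of mitochondrial ribosome genes, 0 of 72 exons passed and 0 of 49 genes were past 2-fold, with a median log2 ratio of 0.31 relative to the median gene.

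In the list of the tricarboxylic acid cycle and pyruvate entry, 0 of 38 exons passed, and of 19 genes 0 were past 2-fold higher and 2 lower. PDK2, a kinase that switches off pyruvate dehydrogenase, had 22 event reads in LM2 and 122 in parental cells, a ratio of 0.225 (0.136 to 0.357). PDP1, the phosphatase that switches it on, had 2610 in LM2 and 12356 in parental cells, a ratio of 0.264 (0.253 to 0.276). In mitochondrial import and cristae, 1 of 49 exons passed, a 150-nt coding exon of the import channel gene TIMM17B at 0.14 (0.08 to 0.22) in LM2 and 0.37 (0.27 to 0.50) in the parental line, and 0 of 26 genes were past 2-fold. In glycolysis, 1 of 24 exons passed, a 93-nt coding exon of PFKM, the muscle-type phosphofructokinase, at 0.86 (0.72 to 0.97) in LM2 and 0.57 (0.44 to 0.71) in the parental line. Exclusion reads of the PFKM exon were few, 2 in LM2 and 8 in parental cells, beside 89 and 66 inclusion reads. Of 14 glycolysis genes 1 was past 2-fold, PGK1, with 63 event reads in LM2 and 204 in parental cells, a ratio of 0.386 (0.286 to 0.515). For regulators of mitochondrial biogenesis, 0 of 13 exons passed and 0 of 12 genes were past 2-fold. Medians relative to the median gene were 0.14 for other genes of the pathway, 0.02 for the tricarboxylic acid cycle, 0.15 for import and cristae, 0.35 for glycolysis and 0.07 for biogenesis, beside 0.10 for the members.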

How the data were processed

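Reads were aligned with STAR 2.7 to hg38, per the submitters' processing notes, and per the file headers MISO was used for skipped exons. Its settings, the level of its interval, the event annotation and the pooling of replicates were not given in the sources used here. Inclusion levels were deposited as fractions from 0 to 1. The authors' deposited table holds the LM2 level minus the parental level as a score, and the Bayes factor as a ratio capped in the file. The same deposited files list raw read counts per event by isoform class.

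Genes came from GENCODE release 29 (hg38). Exons entered where inclusion and exclusion reads together came to 10 or more in each line, with 1 or more of each kind over both, with 1 event per exon, the best covered. For the level from reads, a weight of 0.5 was given to inclusion reads before their share of all such reads was taken. Odds ratios used R 4.3.3, and ratios of event reads an exact conditional 95% interval (SciPy 1.17.1, Python 3.11.15). Genes needed at least 20 event reads over both lines. Intervals cover counting error only. The methods were checked on reads simulated with counting error alone, a check that cannot speak to variation between replicates. No test between groups of samples was possible with 1 pooled value per line.

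Named were the ATP5F1C exon, every exon called, the 12 largest differences with at least 20 reads in each line, the best covered exon and gene of each complex, and the 8 highest and 8 lowest gene ratios with at least 50 reads. Other exons and genes were named after their values were seen. The members, lists and thresholds were chosen with earlier results of these data known. Alternatives covered the thresholds, the read minimum, the event choice, reads in place of levels, scaling, and genes that overlap. Events inside 1 protein_coding gene alone were an alternative chosen after seeing the data.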

Additional observations from a re-analysis of the deposited data

How the results depend on the processing

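No member exon passed at Bayes factors of 5 or 20, at 20 reads in each line, without a read minimum, with every event counted, without exons in overlapping genes or for subunits alone. With the difference lowered to 0.1 the count was 3, or 2.36%, against 2.07% of all exons. With levels from reads alone at a difference of 0.2, and no Bayes factor asked, the count was 2. These were NDUFA3 and UQCRH, both lower in LM2, with Bayes factors of 4.74. The share of all exons at that setting is not given, so this count has no background to be read against. In related lists, a difference of 0.1 gave 2 exons for other genes of the pathway, 1 for the mitochondrial ribosome, 1 for the tricarboxylic acid cycle and 2 for import and cristae. A looser threshold admits more by construction. From reads alone the difference was -0.17 for ATP5F1C, whose exon has no other event, but -0.05 for NDUFV3 and 0.07 for ATP5MG, both below 0.1. At 1.5-fold 12 member genes passed, and under the other scalings and event choices 0 passed 2-fold. Scaled to the median gene, the members' median log2 ratio was 0.10, the mitochondrial ribosome had 1 gene past 2-fold and glycolysis 2, while other genes of the pathway had 2 in place of 3 (UQCC2 was lost), since this scaling raises each ratio alike. The share of all genes past 2-fold under the other scalings and event choices is not given, so the gene counts at those settings have no background. No paired analysis was possible because the deposited tables carry no replicate columns, and leaving out replicates was not run for that reason. Depth limits exons with few exclusion reads: a level near 1 with 0 or 1 such reads cannot show a small difference.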
